A study of Mus musculus with 12 samples.

Results

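The 10 mouse genes described here, Sept1 to Sept9 and Sept11, encode septins. In both deposited tables a spreadsheet had turned their symbols into dates, so that Sept1 stood as the first of September, and a search for symbols starting with "Sept" returned 0 entries. The members were taken from the entries dated September by reading the day as the septin number, and each was checked through its Ensembl ID. The day matched the gene name in 28 of 28 September entries over both tables. The rule used no measured value. It gave 11 entries for 10 genes, since Sept2 has 2 entries, out of 18765 genes with values in the 5-day table and 18712 in the 10-day table. Both tables hold the dates of 27 genes in all, 14 of them in September and 13 in March.

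The RNA came from E14 mouse embryonic stem cells of the genotype RACK1-AID/RPS26-Tir1, called the RACK1 Ribo-Tweezer line, in 12 poly(A) libraries that form 4 groups of 3. All 4 groups carry both fusions. RACK1, a protein of the small ribosomal subunit, bears an auxin-inducible degron, and the auxin receptor Tir1 is joined to RPS26, another protein of that subunit. The auxin indole-3-acetic acid (IAA) lets Tir1 mark the degron for destruction. The first pair of groups had IAA or the solvent DMSO for 5 days, and the second pair was taken 10 days after IAA was withdrawn from cells treated for 5 days, with a DMSO control of its own. The labels do not say whether the line is 1 clone or whether the replicates were grown apart. The tests therefore speak only to how far these libraries vary, which may be technical variation.

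Septins are GTP-binding proteins of the cytoskeleton. They join end to end into rods, and the rods into filaments, rings and gauzes beneath membranes and along actin. In dividing animal cells they collect at the cleavage furrow and the midbody, where they work with anillin and the contractile ring. A rod takes its subunits from the SEPT2, SEPT3, SEPT6 and SEPT7 groups, each with its own place in the rod, and members of a group can often stand in for each other. Of the 10 genes, Sept1, Sept2, Sept4 and Sept5 belong to the SEPT2 group, Sept3 and Sept9 to the SEPT3 group, Sept6, Sept8 and Sept11 to the SEPT6 group, and Sept7 is alone in its group.

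The coding sequence of the switch element of the GTP-binding domain (called G3 here) is shown for every gene because it sets the SEPT6 group apart from the other groups. The sequences are the sense strand, written as DNA, 5′ to 3′, from the GENCODE M21 transcripts that the tables list. Capitals mark the first 4 codons of 7.
Sept1: GACACGCCTGGCtttggggac
Sept2: GACACTCCCGGCtacggggat
Sept4: GACACTCCAGGAtttggggat
Sept5: GACACGCCCGGCtttggggac
Sept3: GACACACCAGGCtttggagac
Sept9: GACACGCCGGGCttcggagac
Sept6: AGCACTGTAGGCtttggggat
Sept8: GATGCTGTGGGCtttggcgat
Sept11: GACACAGTGGGAtttggagac
Sept7: GATACTCCAGGAtttggagat
The third codon began with CC, a proline codon, in the 7 genes of the SEPT2, SEPT3 and SEPT7 groups, and with GT, a valine codon, in the 3 genes of the SEPT6 group. Any pair of genes had between 12 and 20 of the 21 bases in common. The element was searched in the translated coding sequence as any pair of residues, proline or valine, glycine, phenylalanine, leucine or tyrosine, glycine and aspartate. That pattern was widened after a narrower one found no match in Sept8.

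The P-loop, which binds the phosphates of GTP, is shown for Sept1 and Sept9, the genes with the largest changes, beside 1 gene of each of the other groups. Capitals mark the last 3 codons of 8, which spell glycine, lysine and serine.
Sept1: ggggagtcaggcctgGGGAAATCC
Sept9: gggcagagcggcctcGGGAAGTCC
Sept11: ggtgagacaggtattGGCAAATCC
Sept7: ggtgaatctggactgGGAAAGTCG
Each of the 10 genes had 1 match to the pattern of glycine, any pair of residues, glycine, any residue, glycine, lysine and then serine or threonine. Between any pair of genes 13 to 21 of the 24 bases were the same.

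After 5 days of IAA, Sept1 and Sept9 had fallen, Sept2 had fallen a little, and Sept3 and Sept8 had risen a little, while Sept7 and Sept11 lay almost at 0. In the authors' deposited table, 5 of the 11 septin entries passed a Benjamini-Hochberg (BH) adjusted p of 0.05 in limma, against 25.5% of all genes. Of these, 2 were higher with IAA, where 13.5% of all genes were, and 3 were lower, where 12.1% were. By unadjusted p under 0.05 the count was 5 of 11, against 36.3% of all genes. The median log2 fold of the 11 entries was -0.16, beside 0.01 over all genes. At 10 days after withdrawal none of the 11 passed, and neither did any other gene (0% called). At that time the authors' deposited table gave 805 genes (4.3%) an unadjusted p under 0.05, and no septin was among them.

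The tables give, for each gene, a log2 fold, the mean log2 CPM (read counts scaled to a common library size) over the 6 libraries of the comparison, and the test, with no value of a single library. The levels given below for a group of 3 libraries were derived as the mean plus or minus 0.5 of the fold, on the log2 CPM scale, and whether single libraries of the groups overlap cannot be seen. The standard error (SE) is the fold divided by its moderated t. A positive fold was read as higher with IAA, which the headers do not state. Mean levels of the tables, 5-day minus 10-day, rose with the 5-day fold at a slope of 0.533 ± 0.0114 (SE) over 4772 genes called at 5 days, where 0.5 is expected on this reading and -0.5 on the reverse. That slope takes the DMSO controls of both times as alike and treats genes as independent. It bears on the sign of the 5-day folds only, and the 10-day folds were taken to have the same sign convention. An effective depth of 23.3M reads per library, by geometric mean, was inferred for the 5-day comparison and 21.2M for the 10-day one. In these bulk samples fewer cells of a type and less RNA per cell cannot be told apart.

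**Figure D1:**
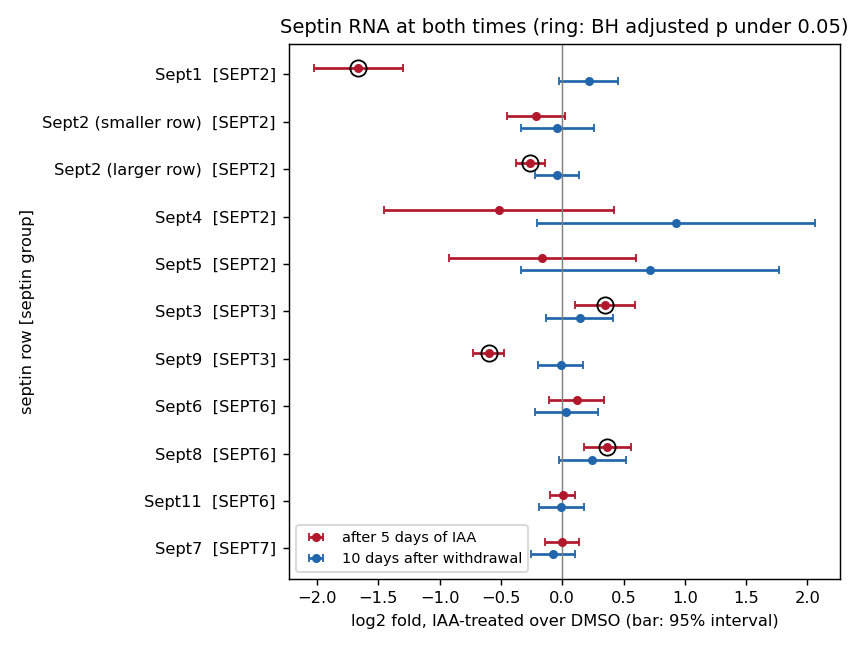
Log2 fold of each septin entry, IAA-treated over DMSO, at both times, with bars for the 95% interval from the implied standard error and rings around entries with a BH adjusted p under 0.05. The 5-day folds run from -1.66 for Sept1 to 0.37 for Sept8, and at 10 days no entry has a ring.

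The SEPT2 group held the gene with the largest change. Sept1 encodes a septin best known in human lymphocytes and at mitotic spindle poles. Its derived level was 3.63 log2 CPM in IAA and 5.30 in DMSO at 5 days, and 5.37 and 5.15 at 10 days. The 5-day IAA group therefore stood apart from the other 3 groups, which lay between 5.15 and 5.37 on that scale. This is 12.4 CPM against 39.3 CPM, or about 290 reads per library against 917. In the authors' deposited table the 5-day fold was -1.66 ± 0.17 (SE), a 3.17-fold fall with a limma BH adjusted p of 1.74e-05, which ranked 175th among all genes by p. At 10 days the authors' deposited table gave 0.21 ± 0.11 (SE), with a limma BH adjusted p of 0.901. The change at 5 days differed from that at 10 days by -1.88 ± 0.20 (SE), with a 95% interval of -2.27 to -1.48 and a BH adjusted p of 1.86e-17 in a z test over 18120 genes. That difference ranked 14th by p. The z test takes the SEs as exact, which makes very small p-values too small. Over 6 alternative settings, among them a t distribution, the BH adjusted p was at most 2.62e-06.

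Sept1 lies on mouse chromosome 7 (GRCm38), on the minus strand from 127214447 to 127233130. The transcript that the tables list for it has 6 exons and only 599 bases, and the annotation marks its 3′ end as not found, so it has no 3′ untranslated region. The longest coding transcript of the gene has 1486 bases. None of the 569 stretches of 31 bases in the listed transcript (0%) occurred in a transcript of another gene. That transcript runs from 127216728 to 127232646, so both ends of the gene, where its neighbours lie, were not searched.

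Sept2 encodes the septin that gives the group its name and that binds actin filaments and microtubules. It has 2 entries because the annotation holds 2 overlapping genes of that name on the plus strand of chromosome 1. ENSMUSG00000116048 spans 93478993 to 93509733 and ENSMUSG00000026276 spans 93478964 to 93510260. The coding sequences of both listed transcripts have 1086 bases, and 0 bases differ. All 31-base stretches (100%) of the first transcript occurred in transcripts of the second gene, and 84.5% the other way. How the authors' counting divided such reads is not given in the sources used here, so the entries cannot be taken as separate genes.

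The Sept2 entry with more reads, ENSMUSG00000116048, had derived levels of 7.42 log2 CPM in IAA and 7.67 in DMSO at 5 days, and 8.16 and 8.21 at 10 days. Its 5-day fold in the authors' deposited table was -0.26 ± 0.05 (SE), with a limma BH adjusted p of 0.00317. The other entry had 5.51 and 5.72 log2 CPM at 5 days, and 6.24 and 6.28 at 10 days. For it the authors' deposited table gave -0.21 ± 0.11 (SE) at 5 days and a limma BH adjusted p of 0.179. The folds of the entries differed by 0.04 with an SE of 0.12 if they are independent. The larger entry held 79.5% of their summed CPM in DMSO and 78.9% in IAA at 5 days, and 79.2% and 79.1% at 10 days. At 10 days both folds lay at -0.04, with SEs of 0.08 and 0.14, in the authors' deposited table. The change between times was -0.21 ± 0.10 (SE, BH adjusted p 0.167, z test) for the larger entry, so a difference between the times was not shown.

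Sept4 and Sept5 were near the lower limit of what these libraries resolve. Sept4 encodes a septin of the sperm annulus in mouse, and one of the protein forms of human SEPT4, ARTS, binds the apoptosis inhibitor XIAP. Sept4 RNA was derived at -1.03 log2 CPM in IAA and -0.52 in DMSO at 5 days, about 11 and 16 reads per library, and -0.26 and -1.19 at 10 days. Folds in the authors' deposited table were -0.52 ± 0.43 (SE) at 5 days and 0.93 ± 0.53 (SE) at 10 days, with limma BH adjusted p-values of 0.431 and 0.901. Sept5, a septin of neurons and platelets that binds the fusion protein syntaxin, was derived at -0.16 and -0.0011 log2 CPM at 5 days and at -0.04 and -0.75 at 10 days. The authors' deposited table gave it -0.16 ± 0.35 (SE) and 0.71 ± 0.49 (SE), with limma BH adjusted p-values of 0.786 and 0.901. The 95% intervals of the 5-day folds reached from -1.45 to 0.42 for Sept4 and from -0.92 to 0.60 for Sept5, so changes as large as that of Sept9 could not be detected at this depth. Of the 31-base stretches of the Sept5 transcript, 46.0% also occurred in Gm49601 and 26.6% in Gp1bb, whose genes overlap it, which leaves its value uncertain.

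**Figure D2:**
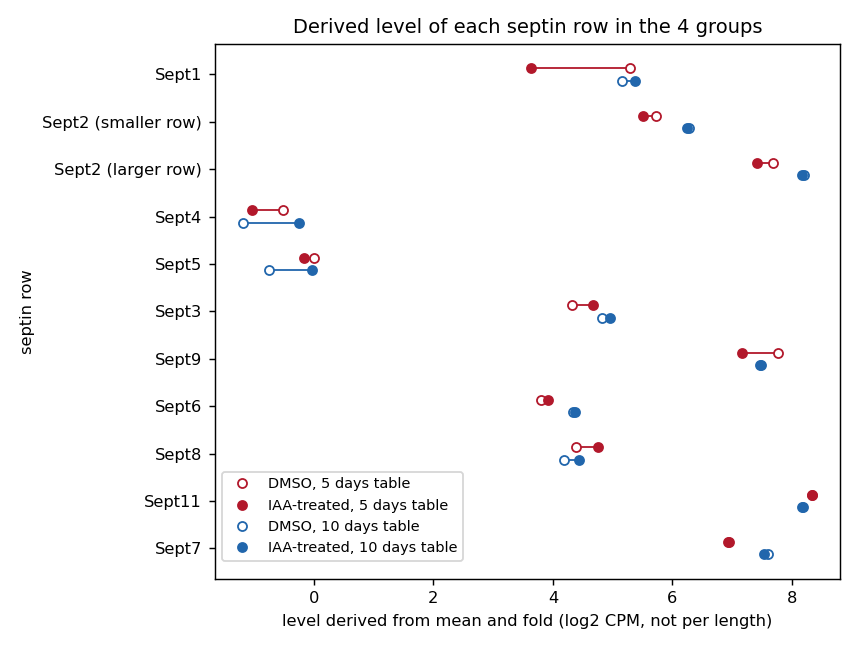
Derived level in log2 CPM (not per length) of each septin entry in the 4 groups, with a line joining DMSO (open) to IAA-treated (filled) within each table. The long line of Sept1 runs from 5.30 in DMSO to 3.63 in IAA at 5 days, and Sept4 and Sept5 lie near or below 0.

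The SEPT3 group changed in both directions at 5 days. Sept9, whose protein is a subunit of the octameric rod and is needed for the last step of cell separation in human cell lines, had derived levels of 7.16 log2 CPM in IAA and 7.76 in DMSO at 5 days, and 7.46 and 7.47 at 10 days. Both 10-day groups lay between the 5-day groups. Its 5-day fold in the authors' deposited table was -0.60 ± 0.06 (SE), a 1.51-fold fall with a limma BH adjusted p of 1.50e-05 that ranked 156th by p. With 143 CPM in IAA and 217 CPM in DMSO, or about 3341 and 5061 reads per library, it was measured more precisely than Sept1. At 10 days the authors' deposited table gave -0.01 ± 0.09 (SE), with a limma BH adjusted p of 0.983. The difference between the times was -0.59 ± 0.10 (SE), with a 95% interval of -0.79 to -0.38 and a BH adjusted p of 1.78e-06 in the z test. Over the 6 alternative settings that p was at most 0.000620. Sept1 and Sept9 were the 2 septin entries of 11 whose change differed between the times, where 10.4% of all genes did.

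Sept3, a septin best known in the brain, had derived levels of 4.68 log2 CPM in IAA and 4.32 in DMSO at 5 days, and 4.96 and 4.82 at 10 days. In the authors' deposited table its 5-day fold was 0.35 ± 0.11 (SE), with a limma BH adjusted p of 0.0368. The call was lost when the trend of the folds with transcript length and GC content was removed, where the fold was 0.33 and the BH adjusted p 0.0519. Over its 6 alternatives that p ranged from 0.0275 to 0.105. The 10-day fold in the authors' deposited table was 0.14 ± 0.13 (SE), with a limma BH adjusted p of 0.901. The difference between the times was 0.21 ± 0.17 (SE), with a BH adjusted p of 0.516.

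In the SEPT6 group, Sept8 rose and the others did not pass. Sept8 encodes a septin that in rat brain is found at synaptic vesicles, where it binds the vesicle protein VAMP2. It was derived at 4.75 log2 CPM in IAA and 4.38 in DMSO at 5 days, and 4.44 and 4.19 at 10 days, so the IAA group was the higher one in both tables. The authors' deposited table gave 0.37 ± 0.09 (SE) at 5 days, with a limma BH adjusted p of 0.00792, and 0.25 ± 0.13 (SE) at 10 days, with one of 0.901. The difference between the times was 0.12 ± 0.16 (SE), with a BH adjusted p of 0.707, so the 5-day rise was not shown to differ from the 10-day value.

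Sept11 had the highest level per library of the septins at 5 days, with 8.34 log2 CPM in IAA and 8.33 in DMSO, and 8.17 and 8.18 at 10 days. Its protein has been found in rods with SEPT7 and SEPT9 in rat cells. The authors' deposited table gave it a fold of 0.0046 ± 0.05 (SE) at 5 days, and the 95% interval of -0.10 to 0.11 leaves room for a change of at most about that size. Sept6, a subunit of the rod first purified with SEPT2 and SEPT7, had 3.92 and 3.80 log2 CPM at 5 days and 4.37 and 4.34 at 10 days. Its folds in the authors' deposited table were 0.12 ± 0.10 (SE) and 0.03 ± 0.12 (SE). The antisense gene Gm15008 shares 7.35% of the 31-base stretches of Sept6, and the strand setting of the counting is not given in the sources used here.

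Sept7 encodes the subunit found in every rod and has no other gene in its group. Its derived levels were 6.94 log2 CPM in both groups at 5 days, and 7.53 in IAA and 7.61 in DMSO at 10 days. Its folds in the authors' deposited table were -0.0023 ± 0.06 (SE) at 5 days, with a 95% interval of -0.14 to 0.14, and -0.07 ± 0.08 (SE) at 10 days. The intervals of Sept7 and Sept11 thus excluded a change of the size seen in Sept9 at 5 days. Sept10, Sept12 and Sept14, which are dated September too and are not among the 10 genes, did not pass at either time. Sept10 had a 5-day fold of -0.25 ± 0.11 (SE) in the authors' deposited table, and the other two lay below a mean log2 CPM of -3.

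**Figure D3:**
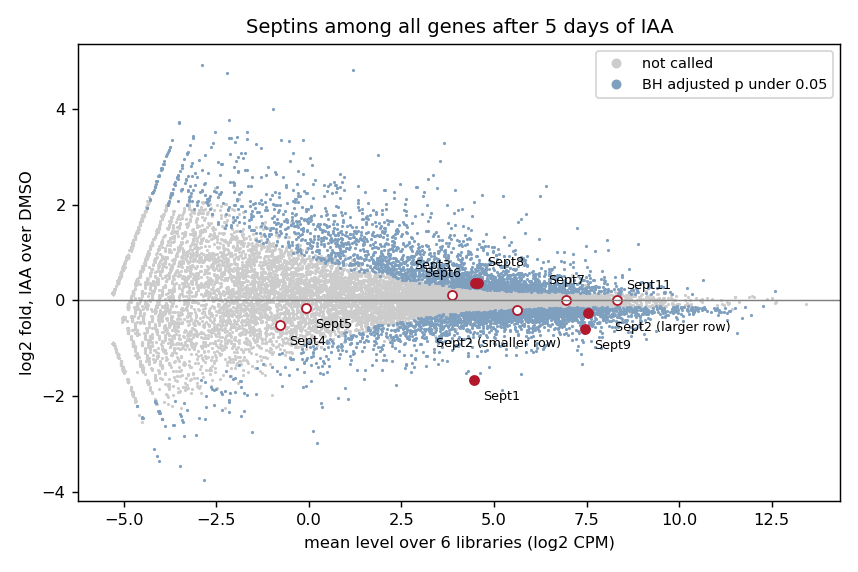
Log2 fold at 5 days against the mean log2 CPM over 6 libraries for all 18765 genes, with called genes in blue and septin entries as red circles (filled where called). Sept1 at -1.66 lies near the lower edge of the genes of its level, whereas Sept7 and Sept11 lie at 0 among the abundant genes.

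The levels of the septins were compared with each other per kilobase of transcript. In the 5-day DMSO group, with the lengths the tables list, Sept1 had 65.6 CPM per kilobase, Sept11 64.0, the larger Sept2 entry 63.5, Sept9 56.1 and Sept7 48.8. Below these came the smaller Sept2 entry with 14.0, Sept8 with 4.57, Sept6 with 4.03, Sept3 with 4.01, Sept4 with 0.537 and Sept5 with 0.466. Neither table gives an error for a level, so no neighbours in this order can be said to differ. The first place of Sept1 rests on its short listed transcript: with the longest coding transcript of each gene, a choice made after the data were seen, Sept1 had 26.5 CPM per kilobase in 5-day DMSO and 8.35 in IAA. Sept11, Sept2, Sept9 and Sept7 then made up the most abundant set.

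Summed over the members, with both Sept2 entries included, septin RNA was 326 CPM per kilobase in DMSO and 252 in IAA at 5 days. It was 369 and 372 at 10 days, at both times with the listed lengths. Any reads counted to both Sept2 entries would raise these sums and the shares of the SEPT2 group. On the log2 scale the summed level in IAA minus DMSO was -0.37 ± 0.03 (SE) at 5 days and 0.01 ± 0.04 (SE) at 10 days, with the SE built from the members' SEs as if they were independent. Most of the 5-day difference lay in the SEPT2 group, at 144 CPM per kilobase in DMSO and 86.6 in IAA, a log2 difference of -0.73 ± 0.07 (SE). Sept1, with its short listed transcript, carried most of that fall, at 65.6 in DMSO and 20.7 in IAA. The SEPT3 group, carried by Sept9, had 60.1 and 42.1, a difference of -0.51 ± 0.06 (SE). The SEPT6 group had 72.6 and 74.5, and Sept7 had 48.8 and 48.7. The SEPT2 group thus made up 44.3% of summed septin RNA in DMSO and 34.4% in IAA at 5 days, and 46.7% and 48.0% at 10 days. With the longest coding transcripts these shares were 36.5% and 30.9% at 5 days. The log2 difference was then -0.50 ± 0.05 (SE) for the SEPT2 group and -0.51 ± 0.06 (SE) for the SEPT3 group. For all members together it was -0.26 ± 0.03 (SE).

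**Figure D4:**
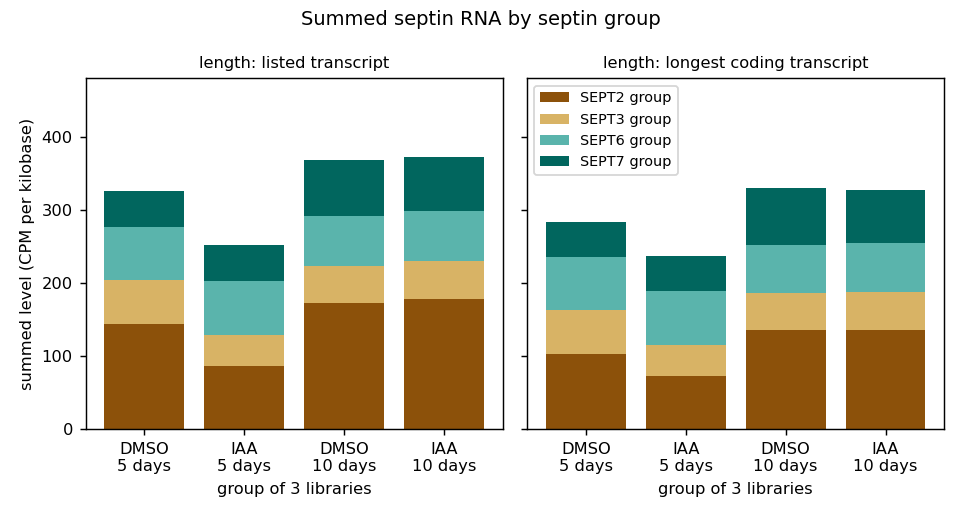
Summed level of the septins in CPM per kilobase, stacked by septin group, in the 4 groups of 3 libraries, with the listed transcript lengths on the left and the longest coding transcripts on the right. With the listed lengths the 5-day IAA bar stands at 252 and the other 3 between 326 and 372.

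The DMSO controls of the tables also differed in some members, without a test since the tables were normalized separately. The derived DMSO level was higher at 10 days than at 5 days by 0.67 for Sept7, 0.55 and 0.53 for the Sept2 entries, 0.54 for Sept6 and 0.49 for Sept3, on the log2 CPM scale. For Sept1, Sept8, Sept9 and Sept11 it was lower at 10 days by between 0.15 and 0.29, and for the scarce Sept4 and Sept5 by 0.67 and 0.75. Over all genes above a mean log2 CPM of 3 the median difference of mean level was -0.01.

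Every septin entry except that of Sept1 had a share of G and C bases next to the cap above 0.625, the median over all genes. The lowest of these was 0.675, for Sept6. The authors' deposited table gives the share of G and C bases next to the cap, which was 0.875 for Sept3 and Sept5 and 0.863 for Sept8, above 99.5% and 99.1% of genes. Sept1 had 0.488, above 11.1% of genes, and Sept9 had 0.750, above 84.7%, as did Sept7. Sept11, with a 5-day fold of 0.0046 ± 0.05 (SE), had 0.825, above 96.7% of genes. Both genes that rose, Sept3 and Sept8, thus had a GC-rich cap-proximal part, and so did Sept5 and Sept11, which did not pass. Whether this share bears on the folds was not tested. Upstream AUGs numbered 4 in Sept9 and 2 in Sept1, and 0 or 1 in the other entries, beside a median of 1 over all genes in the authors' deposited table. The coding sequence of Sept7 had a GC share of 0.403, above 2.71% of genes.

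The gene next to Sept1 moved with it. Mylpf, which encodes a regulatory light chain of fast skeletal muscle myosin, lies on the plus strand of chromosome 7 from 127208890 to 127214298, and its end is 149 bases from the end of Sept1. Mylpf and the other neighbours were chosen after their values were seen. Mylpf RNA was derived at 4.18 log2 CPM in IAA and 5.58 in DMSO at 5 days, and 5.29 and 5.23 at 10 days. The authors' deposited table gave Mylpf a fold of -1.39 ± 0.09 (SE) at 5 days, with a limma BH adjusted p of 7.39e-07, and 0.06 ± 0.14 (SE) at 10 days. Of the 10 measured protein-coding genes within 100 kb of Sept1, the authors' deposited table calls 1 higher and 3 lower at 5 days, where 13.5% and 12.1% of all genes were called so. Besides Mylpf, the lower ones were Tbc1d10b at -0.45 ± 0.06 (SE) and Itgal at -0.68 ± 0.19 (SE), and the higher one was Zfp771 at 0.35 ± 0.10 (SE). Zfp553, which overlaps the start of Sept1 on the other strand, had -0.04 ± 0.08 (SE) in the authors' deposited table and did not pass. The annotated spans of Sept1 and Mylpf do not overlap, and whether reads beyond an annotated end of one entered the count of the other was not tested.

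**Figure D5:**
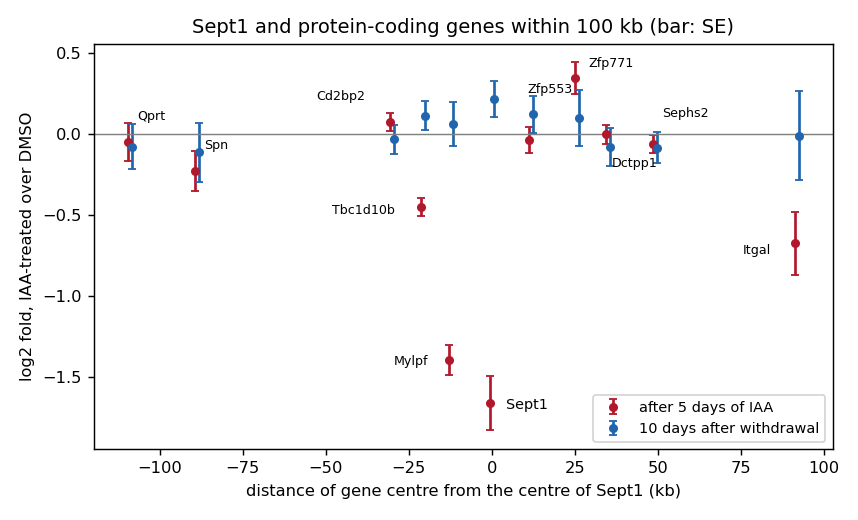
Log2 fold with its SE of Sept1 and the 10 measured protein-coding genes within 100 kb, at both times, against the distance of each gene's centre from that of Sept1 in kilobases. At 5 days Sept1 and the adjoining Mylpf lie at -1.66 and -1.39, and Zfp553 on the other side lies at -0.04.

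Genes within 1 log2 CPM of the mean level of Sept1 in both tables were compared with it, leaving out predicted genes (Gm and Rik symbols). Among these 2596 genes, those nearest to Sept1 over the pair of folds were Inhbb, Mras and Lgals3, at Euclidean distances of 0.235, 0.237 and 0.293. Inhbb encodes a subunit of activin, Mras a small GTPase and Lgals3 the lectin galectin-3. Their folds in the authors' deposited table were -1.89 ± 0.14, -1.53 ± 0.08 and -1.52 ± 0.11 (SE) at 5 days, and 0.14 ± 0.13, 0.02 ± 0.14 and -0.04 ± 0.15 (SE) at 10 days.

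Genes whose proteins work with septins were counted by list, and the largest called change among them was 1.39 for Bcl2. All counts that follow come from the 5-day comparison of the authors' deposited table with limma BH adjusted p under 0.05. There 25.5% of all genes were called, 13.5% higher and 12.1% lower. In every list 0 were called at 10 days. Of 6 genes for Cdc42 and its Borg effectors, which bind septin filaments, 1 was higher, namely Cdc42ep5 at 0.51 ± 0.12 (SE). The list's median fold was 0.06. Of 16 entries for anillin and the contractile ring, 1 was higher and 6 were lower, with a median fold of -0.09 beside 0.01 over all genes. The called genes with the largest folds there in the authors' deposited table were Myh14, a non-muscle myosin heavy chain, at -0.33 ± 0.10 (SE), and Cit, the citron kinase of the furrow, at -0.27 ± 0.06 (SE). In the authors' deposited table the 1 higher entry was Myh9, another myosin heavy chain, at 0.22 ± 0.05 (SE). Myh10, also a myosin heavy chain, did not pass, at 0.08 ± 0.05 (SE). Of the 6 lower entries, 2 are of Myl12b, which carries 2 gene IDs.

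Of 11 genes of the central spindle and the chromosomal passenger complex, 3 were lower in the authors' deposited table, among them Birc5 (survivin) at -0.23 ± 0.06 (SE) and Racgap1 at -0.17 ± 0.05 (SE), with a list median of -0.12. The abscission machinery, which cuts the last bridge between daughter cells, also had 3 of 11 lower, with a median of -0.08. Cep55, the midbody scaffold that recruits it, had -0.56 ± 0.09 (SE) and Chmp2a, a subunit of the ESCRT-III filament, -0.37 ± 0.08 (SE) in the authors' deposited table. The change of Cep55 differed between the times by -0.53 ± 0.13 (SE), with a BH adjusted p of 0.00127 in the z test. Of 9 exocyst genes, whose proteins tether vesicles at the membrane, 2 were higher and 2 were lower, led by Exoc6b at -0.36 ± 0.07 (SE) and Exoc8 at 0.29 ± 0.08 (SE) in the authors' deposited table.

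Of the 12 measured partners of single septins, 2 were higher and 2 were lower. The lower ones in the authors' deposited table were Map4 at -0.27 ± 0.06 (SE) and Vamp2 at -0.27 ± 0.09 (SE). Bcl2, an inhibitor of apoptosis to which ARTS binds in human cells, had 1.39 ± 0.32 (SE) in the authors' deposited table. Its derived level was low, at 1.58 log2 CPM in IAA and 0.20 in DMSO. Siah1b, a ubiquitin ligase of a family known to work with ARTS, had 0.30 ± 0.07 (SE) in the authors' deposited table. Sept4 itself was too low to be resolved. Birc5, Chmp2a and Racgap1 lost their calls when the trend with transcript length and GC content was removed, and Exoc8 did when that with expression was removed as well, at 0.23 and a BH adjusted p of 0.0692.

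Markers of the stem cells were abundant: all 8 of the list lay between 7.7 and 10.7 mean log2 CPM over both tables. The authors' deposited table calls 6 of 8 lower at 5 days, with folds from -0.15 to -0.81. Of all genes 12.1% were called lower. Rack1, the tagged gene, had an RNA fold of -0.17 ± 0.04 (SE) in the authors' deposited table, which does not measure its protein. Since Sept1 is known in lymphocytes, Sept5 in neurons and platelets and Sept3 in neurons, markers of those cells are given beside them. Of 7 measured lymphocyte markers 5 lay below a mean log2 CPM of 0, and their summed level was 4.65 CPM in IAA and 5.87 in DMSO at 5 days, against 12.4 and 39.3 CPM for Sept1. Ptprc, the defining one, stood at -5.16 mean log2 CPM. Of 5 measured platelet markers 1 was lower, with a summed 3.56 and 4.80 CPM. The 8 neuron markers summed to 275 CPM in IAA and 460 in DMSO, most of it from Stmn2 and Tubb3, the 2 that were called lower. Another 2 were called higher, and the median fold of the list was 0.22. Stmn2 had the highest level, and Rbfox3, which marks mature neurons, lay at 0.34 mean log2 CPM. The 7 measured fibroblast markers summed to 757 and 869 CPM, nearly all of it from Fn1 and Vim, with 1 lower, while Postn lay at -4.55. The part of the markers in the septin results was not tested.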

How the data were processed

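The authors deposited 1 table per comparison, with 1 transcript per gene, whose columns are those of the limma result table, per the file headers. Poly(A) RNA extracted with Trizol went into TruSeq libraries, per the labels. The authors gave log2 folds and mean log2 CPM, a moderated t score, and p-values with their BH adjustment, which BH recomputed over the table matched within 4.86e-05. Transcript lengths, upstream AUGs and GC fractions were deposited too. Aligner, counting, build and limma version were not given in the sources used here.

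Dates were restored through Ensembl IDs (18749 and 18696 matched a table of names). The t statistics had 13.4 and 15.2 degrees of freedom, which gave the 95% intervals. The depth is the geometric mean over 6 libraries, inferred from the mean log2 CPM shared by 552 and 478 genes. Those genes were taken to have 1 read in 1 library, with a fixed small offset added to each count. The reads per library given here rest on that. The 5-day fold was set against the 10-day fold by a two-sided z test, BH adjusted over 18120 genes. The comparisons share no control library. Coordinates, lengths and sequences are from GENCODE M21 (GRCm38), whose build the authors' may differ from. Python 3.11.15, pandas 2.3.3 and SciPy 1.17.1 were used, and the steps were tested on simulated data.

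The members and lists were chosen with earlier results of these data known. Named genes are all members and the 2 called genes of each partner list with the largest absolute 5-day folds. Also named are Rack1, neighbours of members and the 3 genes nearest to Sept1. Outside that rule, Myh9, Myh10, Myl12b, Map4 and Vamp2 were named from the partner lists. The stem cell, lymphocyte, neuron, platelet and fibroblast markers are given as sums, counts and defining genes. Protein sequences were not analysed here.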

Additional observations from a re-analysis of the deposited data

Results flagged for a closer look

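The genes below are listed because their change differed between the times at a BH adjusted p under 0.05 in the z test. Each value is the 5-day minus the 10-day log2 fold with its SE. For the septins it was -1.88 ± 0.20 for Sept1 and -0.59 ± 0.10 for Sept9. For the neighbour Mylpf it was -1.46 ± 0.17. For the genes nearest to Sept1 it was -2.03 ± 0.19 for Inhbb, -1.55 ± 0.16 for Mras and -1.48 ± 0.18 for Lgals3, which were picked for resembling Sept1. Among the partner genes it was -0.53 ± 0.13 for Cep55, -0.45 ± 0.12 for Exoc6b, 0.44 ± 0.13 for Siah1b and 1.64 ± 0.56 for Bcl2. Bcl2 had a BH adjusted p between 0.0334 and 0.0760 over its 5 alternatives.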

How the results depend on the processing

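No paired analysis was possible because the tables hold no value of a single library, and for the same reason no replicate was left out and no other normalization, count model or pseudocount was run. At 5 days 2 septin entries were higher. With the trend on length and GC removed there was 1, with that on expression removed as well 1, at an adjusted p under 0.01 1, and at an absolute log2 fold of at least 0.5 there were 0. Over all genes the last of these gave 1548 higher and 684 lower, and the adjusted p under 0.01 gave 1492 and 1297, beside 2524 and 2265. The genes whose change differed between times numbered 1038 at an adjusted p under 0.01 and 1257 with a t distribution, beside 1887. Sept1 and Sept9 kept their calls at 5 days and between the times in all 6 alternatives of each, with BH adjusted p of at most 5.51e-05 and 0.000620. Sept3 had a fold of 0.27 and an adjusted p of 0.105 with all 3 trends removed. The larger Sept2 entry and Sept8 lost their calls at the minimum fold of 0.5. Of 192 results for the members, 186 kept their side of the threshold and 6 lost the call. No called value changed sign, but 7 that were not called did, all of them near 0, in Sept7, Sept11 and the larger Sept2 entry (Sept7 at 5 days reached 0.11 with all 3 trends removed). Rack1 had -0.06 with the trend on length and GC removed and no longer passed. Where calls were lost with a trend removed, the cause was not tested. With 11 to 23 reads per library at 5 days, changes of Sept4 and Sept5 could not be resolved.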
